A study of Mus musculus with 26 samples.

Results

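The comparison described here set the 3 arrays of line WA carrying the empty vector against the 3 arrays of line WC carrying the same vector. These are 6 of the 26 arrays of a study of immortalized mouse embryonic fibroblasts, connective tissue cells taken from embryos that divide without limit in the dish. The members were taken from the line and vector that the labels give for each array. The study infected 3 parental lines, WA, WB and WC, with the retroviral vector pBabe-puro, either empty or carrying human c-myc or v-src, and measured total RNA of whole dishes on Affymetrix expression arrays. Its stated purpose was to test, in cells transformed by c-Myc or v-Src, an expression signature of anchorage-independent growth from human breast cancer lines. The comparison of the parental lines with the empty vector is the baseline under that test.

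Line WA with the empty vector had 3 arrays, line WC with the empty vector had 3, and line WB with the empty vector had 3. The same lines with c-myc (3 WA and 3 WC arrays) and with v-src (3 WA and 3 WC arrays) gave further readings of the line difference on other arrays. All cells carried the pBabe-puro backbone, so no uninfected cells were measured. Of the lines themselves, the labels used here give the name only, with no strain, embryo, tissue, passage or route of immortalization. The samples' free-text description speaks of embryos at an early nuclear cycle, does not match cultured fibroblasts, and was not used. Nothing says that the 3 arrays of a group came from separate cultures, so the p-values measure the spread between these arrays, which may be technical. The groups are whole cultures, in which fewer cells of a kind and less RNA per cell cannot be told apart.

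Embryonic fibroblasts are taken from a mixed embryo body, and cultures of them can hold mesenchyme of different origins. Mesenchymal cells keep a record of where they arose in the expression of homeobox transcription factors, above all the Hox genes, which lie in 4 clusters and are used in nested domains along the trunk and the limbs. The same cells make collagens, elastic fibres, basement membrane and matricellular proteins, secrete patterning signals and the proteins that bind them, and can turn on parts of the muscle, cartilage, bone, tendon and fat programs.

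The values are linear probe set signals without a physical unit, scaled so that every array had a mean of 500 once the brightest 2% and the dimmest 2% of probe sets were set aside. Differences are WA minus WC on the scale log2(signal + 23), with the standard error (SE) of the limma fit and a p-value adjusted by Benjamini-Hochberg over all 13018 genes tested. A gene is said to have risen or fallen in WA when that adjusted p was under 0.05. The constant of 23 shrinks the differences of dim genes. Described here are the 12525 autosomal genes among those tested, each read from 1 probe set, and signals of different genes are not compared. The 3 WA arrays correlated with each other at 0.968 to 0.981 across genes, the 3 WC arrays at 0.967 to 0.975, and WA with WC arrays at 0.901 to 0.933. WA replicate 3 had the lowest array median of the 6, 89.0, against 112.6 and 113.2 on the other WA arrays and 109.4 to 130.5 on the WC arrays, and its dim genes read lower.

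The lines differed at 3762 of the 12525 autosomal genes, which is 30.0%. In WA 1871 genes (14.9%) were higher and 1891 (15.1%) lower than in WC. Of these, 320 (2.55%) were at least 2-fold higher and 616 (4.92%) at least 2-fold lower. The median difference over all autosomal genes was -0.041. At an unadjusted p under 0.05 there were 4957 genes, and at 4593 genes (36.7%) the 3 WA arrays did not overlap the 3 WC arrays. These shares are the background for the counts below. Gene lists are described by the number of members that passed the filter on low signals and were tested, and by how many of those rose or fell.

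The genes that led on the WA side joined contractile, guidance and signalling products. Pdzrn3, a ubiquitin ligase with PDZ domains, gave 791, 952 and 981 in WA arrays, against 6.00, 3.13 and 2.81 in WC arrays, log2 difference 5.11 ± 0.24 SE, adjusted p = 1.2e-13. Dusp4, a phosphatase that switches off MAP kinases, gave 569.9, 521 and 1241 in WA arrays, against 5.68, 12.3 and 4.82 in WC arrays, log2 difference 4.61 ± 0.23 SE, adjusted p = 1.9e-13. WC arrays lay at the bottom of the measured range for both genes, and no WA array came near them. A second, dim probe set of Pdzrn3 read 4.8, 20.7 and 26.1 in WA arrays and 6.2, 22.1 and 24.2 in WC arrays, with no difference past the threshold (-0.02, adjusted p = 0.979). The receptor-type tyrosine phosphatase Ptprz1 gave 1946, 1689 and 2777 in WA arrays, against 102, 80.4 and 44.4 in WC arrays, log2 difference 4.47 ± 0.22 SE, adjusted p = 1.9e-13. Tnnt2, the troponin T of heart and embryonic muscle, gave 915, 716 and 1161 in WA arrays, against 1.85, 21.6 and 47.1 in WC arrays, log2 difference 4.46 ± 0.39 SE, adjusted p = 4.8e-09. Actg2, the gamma actin of smooth muscle, gave 12602, 11481 and 14417 in WA arrays, against 955, 742 and 850.2 in WC arrays, log2 difference 3.88 ± 0.18 SE, adjusted p = 1.1e-13. In each of these 3 the lowest WA array stood far above the highest WC array.

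Also among the 12 largest were Slit3, a secreted ligand of Robo receptors, with 904, 1013 and 1308 in WA arrays, against 47.6, 20.6 and 38.8 in WC arrays (log2 difference 4.24 ± 0.33 SE, adjusted p = 6.9e-10), and Mcam, the adhesion molecule CD146 of pericytes and endothelium, with 3871, 3872 and 5248 in WA arrays, against 243, 337 and 290.1 in WC arrays (log2 difference 3.79 ± 0.23 SE, adjusted p = 8.8e-12). Lrrc15, a membrane protein of activated fibroblasts, gave 3439, 3481 and 4024 in WA arrays, against 313, 192 and 284 in WC arrays, log2 difference 3.70 ± 0.23 SE, adjusted p = 1.1e-11. The groups did not overlap for any of them. Megf10, an engulfment receptor also found in muscle progenitors, had a difference of 3.84. Rgs16, which speeds the turn-off of G proteins, had 3.72, Mn1, a transcriptional coregulator, had 3.5, and Lce1h, of the late cornified envelope family, had 3.5.

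On the other side, WA lacked most of the signal that WC had at a set of genes for secreted and surface proteins. Il1rn, the antagonist of the interleukin-1 receptor, gave 91.4, 155 and 55.3 in WA arrays, against 17638, 12389.7 and 8200.0 in WC arrays, log2 difference -6.70 ± 0.41 SE, adjusted p = 9.5e-12, the largest difference in size among the 24 leading genes. Penk, the precursor of the enkephalin peptides, gave 137, 73.3 and 10.7 in WA arrays, against 10601, 5617 and 1640.5 in WC arrays, log2 difference -5.85 ± 0.60 SE, adjusted p = 5.8e-08. Sod3, the extracellular superoxide dismutase, gave 29.2, 26.7 and 7.13 in WA arrays, against 3108, 2069 and 2085 in WC arrays, log2 difference -5.81 ± 0.24 SE, adjusted p = 1.1e-14. The WC arrays themselves spread widely for Il1rn and Penk, with replicate 1 highest and replicate 3 lowest, yet the lowest WC array exceeded every WA array many times over.

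Mme, the membrane peptidase neprilysin, gave 71.7, 72.8 and 19 in WA arrays, against 5757, 3363 and 1916 in WC arrays, log2 difference -5.54 ± 0.41 SE, adjusted p = 3.1e-10. Cd34, a sialomucin of stromal progenitors, endothelium and blood stem cells, gave 135, 119 and 53.1 in WA arrays, against 3278, 2901 and 2674 in WC arrays, log2 difference -4.63 ± 0.18 SE, adjusted p = 5.0e-15. Cd24a, a heavily glycosylated surface protein, gave 382, 243 and 246 in WA arrays, against 10535, 8985 and 9212 in WC arrays, log2 difference -4.96 ± 0.16 SE, adjusted p = 4.8e-16. For all 3 the lowest WC array stood far above the highest WA array, and the WC arrays of Mme spread most. The remaining leading genes were Slc14a1, a urea transporter (-4.94), Abi3bp, a matrix protein (-4.93), Crabp2, which carries retinoic acid to its nuclear receptors (-4.72), Cbr2, a carbonyl reductase (-4.65), Cxcl5, a chemokine for neutrophils (-4.65), and the Hox gene Hoxa10.

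**Figure D1:**
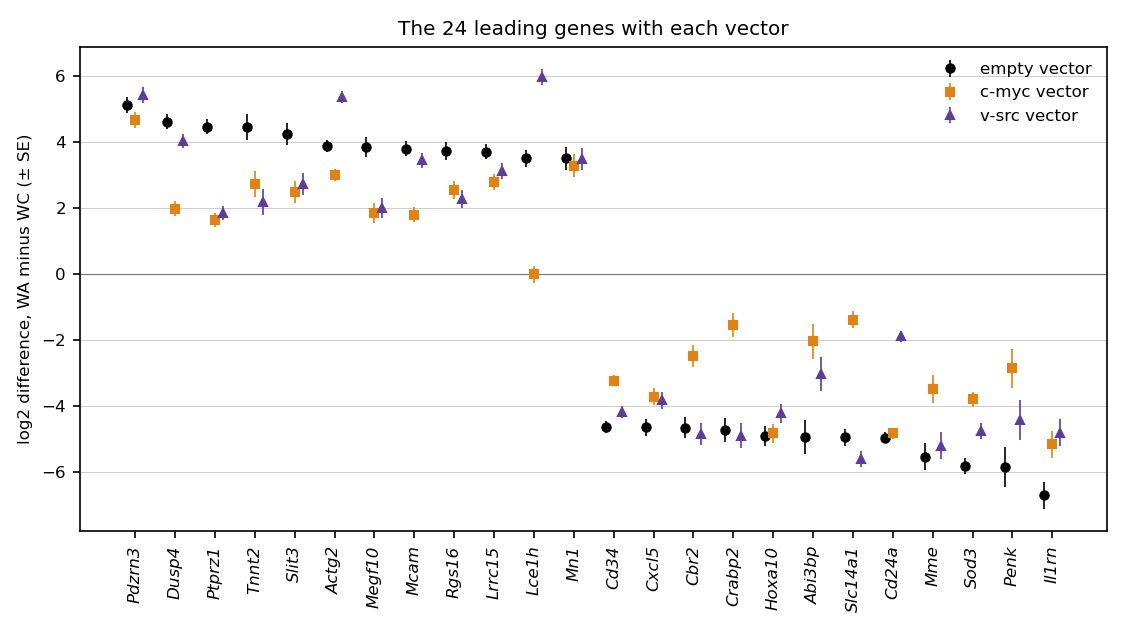
The 12 autosomal genes with the largest positive and the 12 with the largest negative difference with the empty vector (x axis), by log2 difference, WA minus WC, with its SE (y axis), for the empty vector (circles), c-myc (squares) and v-src (triangles). Apart from Lce1h with c-myc, at -0.01, every oncogene-vector point lies on the same side of 0 as the empty-vector point.

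Line WB was set beside both lines at these genes. In the comparison of WB with WC, which shares the WC arrays, 11 of the 12 leading WA-high genes were higher in WB than in WC and 11 of the 12 leading WA-low genes were lower in WB. Against WB, which shares the WA arrays, WA was higher for 4 of the 12 WA-high genes and lower for 2 of them, and it was lower for 7 of the 12 WA-low genes. Over all autosomal genes 26.2% differed between WA and WB and 32.8% between WB and WC. Lrrc15 and Cd34 were the exceptions. Lrrc15 gave 328, 304 and 321 in WB and Cd34 gave 2842, 2796 and 2778 in WB, both close to WC, so WA stood apart from both other lines at these genes.

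Transcription factors of position separated the lines along the Hox clusters. Of 39 Hox genes, 20 were tested, 13 had signals below the filter and 6 were not analysed here. Among the 20 tested, 2 rose in WA and 6 fell, beside the 14.9% and 15.1% of all autosomal genes. The HoxA cluster carried 4 of the 6 that fell, out of 6 tested. Hoxa10 gave 86.7, 80.6 and 30.4 in WA arrays, against 2645, 2623 and 2280.4 in WC arrays, log2 difference -4.90 ± 0.29 SE, adjusted p = 6.1e-12, 29.9-fold lower on this scale. Hoxa11, which patterns the middle segment of the limb, gave 164, 121 and 130.0 in WA arrays, against 1299, 1519 and 1291 in WC arrays, log2 difference -3.11 ± 0.17 SE, adjusted p = 7.1e-13. Hoxa9, of the trunk and proximal limb, gave 295, 309 and 263 in WA arrays, against 882, 872 and 862 in WC arrays, log2 difference -1.52 ± 0.15 SE, adjusted p = 5.1e-08. The WC arrays lay close together and above every WA array for all 3. Hoxa13, a gene of the hand and foot plate, was dim, with 58.2, 90.7 and 72.2 in WA arrays, against 178, 120.3 and 157 in WC arrays (log2 difference -0.85 ± 0.30 SE, adjusted p = 0.032), and its call was lost in 6 of 14 alternative settings. Further forward, Hoxa5 gave 623, 648 and 269.6 in WA arrays, against 738, 327 and 775 in WC arrays and did not pass the test (log2 difference -0.25 ± 0.31 SE, adjusted p = 0.59), with its groups overlapping.

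Other probe sets of the same cluster were read in a fit of all 34945 probe sets with a single gene name. The other probe set of Hoxa9 gave 5.2, 4.8 and 5.7 in WA arrays, against 1294, 1876 and 1697 in WC arrays, a log2 difference of -5.85 (adjusted p = 1.2e-15). That of Hoxa10 was dim, with 6.7, 46.7 and 19.9 in WA arrays, against 108, 27.7 and 18.2 in WC arrays, and did not pass (-0.54, adjusted p = 0.467). That of Hoxa5 gave 47.1, 61.6 and 14.2 in WA arrays, against 442, 564 and 463 in WC arrays, a log2 difference of -3.08 (adjusted p = 2.28e-08). The 2 probe sets of each gene thus gave differences of unlike size, and with their mean Hoxa5 fell by 1.66 (adjusted p = 1.35e-05). The probe sets kept for the main count were the brighter ones, and which part of the transcript each reads was not tested. Outside this cluster, dim probe sets of Prrx1, Plxnc1, Tbx3, Eya1, Lamb1, H2-D1 and Mcm6 had the opposite sign to the one kept, none past the threshold. So did other probe sets of Col1a1 (-0.11), Col3a1 (-0.18) and Myod1 (0.18), which did not pass either.

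In the HoxD cluster the 2 genes that passed the test moved in opposite directions. Hoxd13, the most posterior gene of the cluster, gave 139.9, 99.4 and 101 in WA arrays, against 1671, 1014 and 1675 in WC arrays, log2 difference -3.41 ± 0.21 SE, adjusted p = 7.5e-12. Hoxd8, further forward in the cluster, gave 1107, 1043 and 1321 in WA arrays, against 356, 336 and 401 in WC arrays, log2 difference 1.60 ± 0.14 SE, adjusted p = 4.2e-09. The groups did not overlap for either gene, with WC high for Hoxd13 and WA high for Hoxd8. Hoxd9, between them, did not pass the test, with 193, 254 and 306 in WA arrays, against 119.5, 203 and 207 in WC arrays (log2 difference 0.47 ± 0.33 SE, adjusted p = 0.32). In the HoxB cluster Hoxb2, a gene of the hindbrain and anterior trunk, rose in WA, with 228, 171 and 157 in WA arrays, against 40.9, 18.9 and 58.4 in WC arrays (log2 difference 1.78 ± 0.30 SE, adjusted p = 6.7e-05), and the other 5 tested did not pass. In the HoxC cluster only the dim Hoxc8 passed among 4 tested, with 7.43, 33.9 and 24.2 in WA arrays, against 51.7, 51.6 and 58.7 in WC arrays (log2 difference -0.83 ± 0.26 SE, adjusted p = 0.016). Both lines were at the bottom of the range at Hoxc8, while WB gave 5865, 6472 and 5822, and the call was lost in 3 alternative settings.

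Hox genes below the filter were read in a fit without it, over 17404 autosomal genes, of which 21.9% were called, 11.3% lower and 10.6% higher in WA. Of the 13, 5 fell and 0 rose. Hoxd10 gave 5.10, 2.30 and 21.8 in WA arrays, against 294, 154 and 216 in WC arrays, log2 difference -2.91 ± 0.29 SE, adjusted p = 6.1e-08. Hoxd11 gave 7.0, 5.70 and 9.40 in WA arrays, against 154, 238 and 172 in WC arrays, log2 difference -2.78 ± 0.26 SE, adjusted p = 2.5e-08. Hoxa7 gave 11, 13.1 and 8.70 in WA arrays, against 101, 257 and 189 in WC arrays, log2 difference -2.52 ± 0.34 SE, adjusted p = 5.1e-06. WC arrays stood above WA arrays throughout, and the WA arrays were near 0. Hoxd12 (log2 difference -1.44 ± 0.33 SE, adjusted p = 0.0024) and Hoxa4 (log2 difference -1.06 ± 0.37 SE, adjusted p = 0.043) fell less. The block Hoxd10 to Hoxd13 was thus lower in WA at each of its 4 genes, while Hoxd8 was higher.

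**Figure D2:**
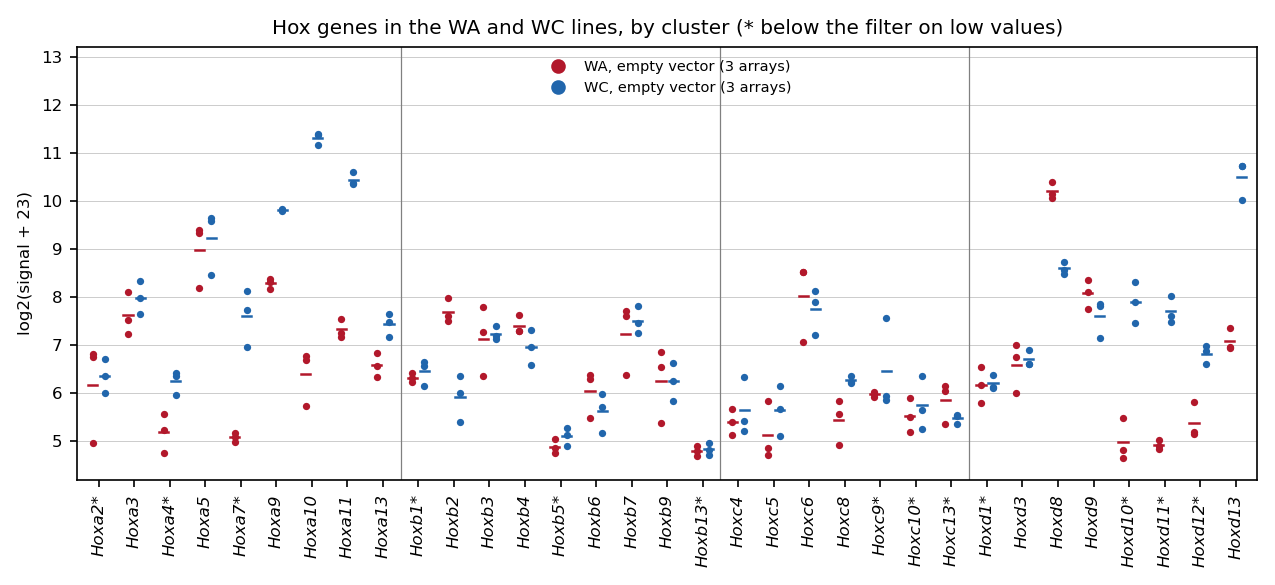
Signal of the 33 Hox genes with a probe set, on the scale log2(signal + 23) (y axis), in the 3 WA and 3 WC empty-vector arrays, with the mean as a bar; genes run along the x axis in cluster order and an asterisk marks a gene below the filter. Hoxa7, Hoxa9, Hoxa10, Hoxa11 and Hoxd10 to Hoxd13 are higher in WC, and Hoxb2 and Hoxd8 higher in WA.

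Most Hox calls recurred with the oncogene vectors, on other arrays: of the 8 made with the empty vector 6 were made in the same direction with both. Hoxa10 differed by -4.83 with c-myc and -4.22 with v-src, Hoxa11 by -3.31 and -3.21, and Hoxd13 by -3.5 and -3.11. The F test for a line difference that changes with the vector gave adjusted p = 0.41, 0.81 and 0.6 for the 3 genes. A p above the threshold does not show that the differences were equal, and the largest shift of these 3 from the empty-vector value was 0.69, at Hoxa10 with v-src. Hoxa13 gave -0.80 and -0.75, which did not pass the test with either vector (adjusted p = 0.052 and 0.058). Hoxc8 did not pass with either vector (0.07 and -0.16), and the difference of Hoxd8 changed with the vector, at 0.90 with c-myc and 1.70 with v-src (F test, adjusted p = 0.0093). WB sided with WA: Hoxa10 gave 72.7, 39.6 and 28.6 in WB, Hoxa11 gave 163, 158 and 103, and Hoxd13 gave 125, 103 and 81.8, so WC was the highest of the 3 lines at these genes.

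Promoter sequences are shown for the HoxA and HoxD gene with the largest differences, as RefSeq gives them on build GRCm38.p6, from 250 bases before to 50 bases after the annotated start. CG dinucleotides, the sites of DNA methylation, are in capitals. Hoxa10 is on the minus strand of chr6:52240805-52241104, at the first of the 2 starts listed for it, and Hoxd13 on the plus strand of chr2:74667975-74668274.
Hoxa10: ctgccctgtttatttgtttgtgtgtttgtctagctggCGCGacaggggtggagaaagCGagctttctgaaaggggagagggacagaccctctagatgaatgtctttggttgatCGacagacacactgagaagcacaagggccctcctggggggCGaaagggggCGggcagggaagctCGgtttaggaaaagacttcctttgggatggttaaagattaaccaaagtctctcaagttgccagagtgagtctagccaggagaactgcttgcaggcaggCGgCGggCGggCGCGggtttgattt
Hoxd13: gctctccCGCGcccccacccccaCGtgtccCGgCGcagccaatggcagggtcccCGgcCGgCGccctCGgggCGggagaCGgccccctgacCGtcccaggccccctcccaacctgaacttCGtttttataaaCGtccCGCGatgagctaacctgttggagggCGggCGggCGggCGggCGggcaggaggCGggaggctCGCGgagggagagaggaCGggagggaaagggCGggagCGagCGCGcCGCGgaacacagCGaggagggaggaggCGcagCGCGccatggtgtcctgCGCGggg
The Hoxa10 window holds 12 CG dinucleotides and the Hoxd13 window 37, against a median of 7 over the 25748 autosomal genes with a promoter in the table. Of the 37 positional genes that passed the test, 26 have a promoter there, with a median of 19. Of the 24 leading genes 13 have one, with a median of 12. Positional genes that did not pass were not counted, so a link between CG content and the line difference was not tested. No methylation was measured, and nothing about it follows from these letters.

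Other transcription factors of the limb followed WC more often than WA. Of 15 tested limb bud factors 2 rose and 7 fell in WA. Tbx18, a T-box factor of limb bud, somite and epicardium, gave 406, 458 and 436 in WA arrays, against 3377, 3775 and 3234 in WC arrays, log2 difference -2.93 ± 0.12 SE, adjusted p = 1.8e-14. Irx3, an Iroquois factor of the proximal and anterior limb, gave 508, 474 and 448 in WA arrays, against 3226, 4018 and 3687 in WC arrays, log2 difference -2.87 ± 0.11 SE, adjusted p = 5.2e-15. Lhx9, a LIM homeobox factor of the limb mesenchyme, gave 493, 404 and 342 in WA arrays, against 1351, 1986 and 1829 in WC arrays, log2 difference -2.0 ± 0.14 SE, adjusted p = 9.2e-11. These were bright genes with tight replicates and no overlap. Shox2 (-1.21), needed in the proximal limb, the T-box factor Tbx3 (-1.12), the paired-related factor Prrx2 (-1.06) and Emx2, needed for the shoulder blade (-0.47, a call lost in 7 of 15 alternative settings), fell as well. The exceptions were En1, which marks ventral limb ectoderm and a dermal fibroblast lineage of the trunk, with 575, 645 and 354 in WA arrays, against 127, 87.8 and 163 in WC arrays (log2 difference 1.87 ± 0.24 SE, adjusted p = 1.4e-06), and Prrx1, a general limb and dermal mesenchyme factor, with 4899, 5151 and 3716 in WA arrays, against 2672, 2847 and 2726 in WC arrays (log2 difference 0.72 ± 0.09 SE, adjusted p = 1.6e-06).

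The forelimb factor Tbx5 lay below the filter, which uses the mean over all 26 arrays, yet was measured in WC. Its signal was 9.40, 16.4 and 7.0 in WA arrays and 389, 469.7 and 392 in WC arrays, and the fit without a filter gave log2 difference -3.70 ± 0.21 SE, adjusted p = 4.4e-12. With c-myc the means were 10.3 in WA and 374 in WC, and with v-src 14.7 in WA and 292 in WC, so the contrast stood with every vector. The hindlimb factors Pitx1, at 54.0, 95.5 and 64.9 in WA and 76.1, 50.3 and 26 in WC, and Tbx4, at 8.70, 64.2 and 8.10 in WA and 56.7, 49.5 and 46.1 in WC, overlapped between the lines at low signals. Lmx1b, of the dorsal limb, was lower in WA (log2 difference -1.58 ± 0.38 SE, adjusted p = 0.0031), as was Sall1 (log2 difference -1.58 ± 0.36 SE, adjusted p = 0.0019). Alx4, of the anterior limb and face, went the other way, with 152, 139.7 and 273 in WA arrays, against 11.6, 20.8 and 31.6 in WC arrays (log2 difference 2.22 ± 0.39 SE, adjusted p = 1.5e-04). These genes were chosen after their values were seen.

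Among somite factors a pair of genes stood on the WA side. Pax3, of the dermomyotome and neural crest, gave 474, 651 and 488 in WA arrays, against 10.6, 139.9 and 31.2 in WC arrays, log2 difference 3.06 ± 0.59 SE, adjusted p = 2.9e-04. Meox1, of the early somite and sclerotome, gave 273, 273 and 358 in WA arrays, against 50.8, 22.1 and 23.7 in WC arrays, log2 difference 2.58 ± 0.41 SE, adjusted p = 2.6e-05. WC replicate 2 was well above the other WC arrays at Pax3, but below every WA array. Against them stood Foxc1, a forkhead factor of paraxial and head mesenchyme, with 615, 571 and 521 in WA arrays, against 3387, 3432 and 3043 in WC arrays (log2 difference -2.48 ± 0.13 SE, adjusted p = 8.8e-13), and Eya1 (-1.33). In this list of 11 tested genes 2 rose and 3 fell. With c-myc 0 of the 11 rose and 4 fell, so neither Pax3 nor Meox1 was called higher in WA with that vector. With v-src 1 rose and 5 fell, and Meox1 was not called higher there either. Pax3 was high in WA alone, since WB gave 10.8, 9.55 and 10.3, whereas Meox1 gave 467, 488 and 332 in WB.

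Among 14 tested factors of the lateral plate, heart and viscera 2 rose and 6 fell in WA. Osr1, of the lateral plate and connective tissue progenitors, gave 381, 378 and 377 in WA arrays, against 4479.8, 4929 and 2972 in WC arrays, log2 difference -3.34 ± 0.18 SE, adjusted p = 9.8e-13. Foxd1, of kidney stroma and other mesenchyme, gave 76.6, 74.1 and 69.9 in WA arrays, against 1022, 766 and 722 in WC arrays, log2 difference -3.14 ± 0.30 SE, adjusted p = 1.6e-08. Gata6, of heart, gut and lateral plate, gave 144, 118 and 112 in WA arrays, against 417, 347 and 349.6 in WC arrays, log2 difference -1.42 ± 0.14 SE, adjusted p = 2.9e-08. All 3 separated the lines without overlap. Mab21l2 (-2.26) and Foxf1 (-1.52) were lower in the same way. Of 13 tested head and neural crest factors 4 rose and 2 fell, among them Ets1 (1.21) and Six2 (-1.74). Of the other probe sets of Ets1, the brightest gave 1.27 (adjusted p = 2.94e-08). The rest gave 0.21 (adjusted p = 0.423) and -0.11 (adjusted p = 0.726). The neural crest factors Sox10, at 238, 100.1 and 169 in WA and 274, 225 and 81.1 in WC, and Foxd3, at 19, 18.6 and 17.8 in WA and 36.0, 20.2 and 88.3 in WC, overlapped between the lines. Of 7 tested Hox cofactors, Meis2 alone passed the test (0.62). Over all 80 positional genes tested, of 131 with a probe set, 13 rose and 24 fell, with a median of -0.25.

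Both lines carried a fibroblast profile. Of 17 fibroblast markers, all tested, 11 did not pass the test, and the collagen genes that define the type overlapped between the lines. Col1a1 gave 18635, 19125 and 27874 in WA arrays, against 22738, 19407 and 15979 in WC arrays, log2 difference 0.17 ± 0.13 SE, adjusted p = 0.37. Col1a2 (0.06) and Col3a1 (0.02) behaved alike, and their WA and WC arrays overlapped too. Within the list Thy1, the surface marker CD90, was higher in WA, with 16317, 16573 and 19825 in WA arrays, against 5926, 5386 and 3874 in WC arrays (log2 difference 1.81 ± 0.11 SE, adjusted p = 1.3e-11), as was Fap, the fibroblast activation protease (1.42). Pdpn, podoplanin, was lower, with 788, 686 and 736 in WA arrays, against 1603, 1819.8 and 1909 in WC arrays (log2 difference -1.24 ± 0.11 SE, adjusted p = 2.6e-09). Pdgfra was slightly lower (-0.57, adjusted p = 0.025), and lost the call when WA replicate 1 or WC replicate 1 was left out.

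Some contractile genes rose in WA while the most used markers of the program did not. Of 15 smooth muscle and pericyte markers tested 3 rose and 0 fell, the third beside Actg2 and Mcam being Cspg4, the proteoglycan NG2 of pericytes (1.24). The first markers of the list, Acta2 and Tagln, did not pass, with 19399, 18695 and 28710.2 in WA arrays, against 24291, 19712 and 16012 in WC arrays for Acta2 (log2 difference 0.15 ± 0.13 SE, adjusted p = 0.44) and a difference of 0.28 for Tagln (adjusted p = 0.12). Their groups overlapped. Myocd, the coactivator that drives the smooth muscle program, lay below the filter at 170.4, 163 and 169.9 in WA arrays, against 40.6, 47.4 and 29.5 in WC arrays (log2 difference 1.63 ± 0.35 SE, adjusted p = 0.0012). Among 11 skeletal muscle markers 3 rose and 4 fell, and besides Tnnt2 the largest was Acta1, skeletal actin, with 863, 539 and 719 in WA arrays, against 106, 257 and 263 in WC arrays (log2 difference 1.72 ± 0.41 SE, adjusted p = 0.0024). Myod1, the master regulator of skeletal muscle, gave 97.9, 101 and 87.9 in WA arrays, against 138, 106 and 116 in WC arrays and did not pass (log2 difference -0.26 ± 0.35 SE, adjusted p = 0.62).

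Of 8 cartilage genes tested 0 rose and 3 fell in WA, with a median of -0.18 over the 8. With c-myc 2 of the 8 fell and with v-src 1, and none of the 3 calls was shared by both vectors. Sox9, the regulator of cartilage fate, gave 271, 314 and 120.4 in WA arrays, against 953, 916 and 818 in WC arrays, log2 difference -1.92 ± 0.27 SE, adjusted p = 5.2e-06. Col2a1, cartilage collagen, gave 341, 382 and 234 in WA arrays, against 2429.6, 2202 and 1574 in WC arrays, log2 difference -2.62 ± 0.33 SE, adjusted p = 1.3e-06. Comp, a cartilage and tendon matrix protein, gave 116, 193 and 78.4 in WA arrays, against 793, 504 and 303 in WC arrays, log2 difference -1.84 ± 0.34 SE, adjusted p = 1.6e-04. No WA array reached the lowest WC array at these genes. The bone list had 0 higher and 2 lower of 4 tested, Omd, osteomodulin (-1.67), and Alpl, alkaline phosphatase (-0.67, adjusted p = 0.042, a call lost in 6 of 15 alternative settings), while Pth1r, the parathyroid hormone receptor of bone and growth plate, was below the filter and higher in WA, with 224, 162 and 193 in WA arrays, against 18.1, 5.20 and 8.30 in WC arrays (log2 difference 2.70 ± 0.26 SE, adjusted p = 4.0e-08). Tendon genes were split, with 4 higher and 1 lower of 7. Scx, the tendon regulator, was lower, with 224, 135 and 79.4 in WA arrays, against 381, 248 and 436 in WC arrays (log2 difference -1.22 ± 0.43 SE, adjusted p = 0.034), a call lost in 4 of the leave-one-out fits, and Fmod, fibromodulin, was higher, with 527, 945 and 751 in WA arrays, against 255, 158 and 185 in WC arrays (log2 difference 1.77 ± 0.35 SE, adjusted p = 3.4e-04).

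Among 5 tested adipocyte genes 1 rose and 2 fell. Cebpa, a factor that drives fat cell differentiation, gave 68.5, 41.2 and 63.7 in WA arrays, against 539, 448 and 423 in WC arrays, log2 difference -2.62 ± 0.31 SE, adjusted p = 6.1e-07. Fabp4, a fatty acid carrier of fat cells, gave 51.9, 46.3 and 34.1 in WA arrays, against 228, 268 and 236 in WC arrays, log2 difference -2.0 ± 0.21 SE, adjusted p = 9.3e-08. Other probe sets of Fabp4 gave -1.72 (adjusted p = 0.00199), -0.23 (adjusted p = 0.656) and 0.01 (adjusted p = 0.995). Lpl, lipoprotein lipase, ran the other way, with 398, 379.9 and 211 in WA arrays, against 23.4, 16.2 and 21.4 in WC arrays (log2 difference 2.98 ± 0.29 SE, adjusted p = 2.1e-08). Another probe set of Lpl gave 92.5, 61.6 and 53.3 in WA arrays, against 45.7, 50.2 and 31.5 in WC arrays, and did not pass (0.48, adjusted p = 0.394). Pparg, the nuclear receptor of the fat program, lay below the filter and did not pass (log2 difference -0.70 ± 0.35 SE, adjusted p = 0.18).

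Markers of cells other than mesenchyme were counted as lists. Of 8 endothelial markers 1 rose and 0 fell, of 10 macrophage and blood markers 1 rose and 1 fell, of 10 epithelial markers 0 rose and 3 fell, and of 8 glial and pigment cell markers 0 rose and 0 fell. Their summed signals per array ran from 1444 to 1554 in WA and 1131 to 1393 in WC for the endothelial list, 1042 to 1950 in WA and 1732 to 2331 in WC for macrophages and blood, and 1644 to 3199 in WA and 2044 to 2691 in WC for epithelium. Of 3 mesothelial markers tested 0 rose and 1 fell, with sums of 406 to 637 in WA and 701 to 747 in WC. Pecam1 of endothelium, at 5.10, 32.5 and 20.8 in WA and 9.90, 8.20 and 12.8 in WC, and Ptprc of blood cells, at 71.1, 33.6 and 23.8 in WA and 45.2, 26.4 and 44.4 in WC, were below the filter. A part of these cells in the differences was not tested. Krt8, a keratin of simple epithelium, was lower in WA (log2 difference -1.21 ± 0.25 SE, adjusted p = 4.9e-04), and another of its probe sets gave 0.55 (adjusted p = 0.432). Of 9 neuronal genes 1 rose and 2 fell, with a median of -0.24 and sums of 3659 to 3975 in WA and 7616 to 8293 in WC. Most of the WC sums came from Stmn2 alone. Stmn2, a microtubule regulator of growing neurites, gave 188, 296 and 97.2 in WA arrays, against 4772, 4592 and 5128 in WC arrays, log2 difference -4.59 ± 0.30 SE, adjusted p = 2.5e-11, and Tubb3, a beta tubulin typical of neurons, gave 799, 834 and 1294 in WA arrays, against 143, 112 and 112 in WC arrays, log2 difference 2.75 ± 0.19 SE, adjusted p = 8.4e-11.

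Imprinted genes, which are read from 1 parental copy, showed 5 higher and 1 lower of 17 tested. Peg3, a paternally expressed zinc finger gene, gave 1063, 841 and 742 in WA arrays, against 112, 79.3 and 124 in WC arrays, log2 difference 2.82 ± 0.18 SE, adjusted p = 1.9e-11. Igf2, the embryonic growth factor, gave 1359, 1764 and 798 in WA arrays, against 277, 260.1 and 226 in WC arrays, log2 difference 2.19 ± 0.40 SE, adjusted p = 1.6e-04. Mest, another paternally expressed gene, gave 443, 414 and 414 in WA arrays, against 6013, 2659 and 1602 in WC arrays, log2 difference -2.74 ± 0.45 SE, adjusted p = 4.2e-05. Peg3 and Igf2 were thus high in WA and Mest high in WC, with WC arrays of Mest spread over several fold. Grb10, an adaptor that restrains growth factor receptors, was higher in WA (1.24). Other probe sets of Peg3 were also higher in WA, at 1.77 (adjusted p = 0.000575) and 2.70 (adjusted p = 6.94e-09). The dimmest probe sets of Peg3 gave -0.74 (adjusted p = 0.169) and -0.10 (adjusted p = 0.721). A dimmer probe set of Igf2 gave -0.32 (adjusted p = 0.724).

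The matrix genes as a class did not lean to either line, with 43 higher and 36 lower among 170 tested and a median of 0.09, but single families did. Of 9 fibril-forming collagens 1 rose, Col5a1, and 1 fell, Col2a1. The probe set kept for Col5a1 differed by 0.38 and its other bright probe sets by 1.31 (adjusted p = 5.72e-06) and 1.03 (adjusted p = 2.96e-05). Of 12 other collagens 3 rose and 0 fell. Col8a1, a network collagen of vessels and remodelling tissue, gave 8572, 7909.9 and 11307 in WA arrays, against 1856, 2087 and 2393 in WC arrays, log2 difference 2.11 ± 0.14 SE, adjusted p = 3.6e-11. Col6a3 (1.09) and Col7a1 (1.23), of microfibrils and anchoring fibrils, rose too.

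Basement membrane genes changed in composition, with 5 higher and 5 lower of 16. The collagen IV chains Col4a1 and Col4a2 were higher in WA: Col4a1 gave 14150.3, 13250.4 and 19031 in WA arrays, against 5594, 4752 and 5006 in WC arrays (log2 difference 1.58 ± 0.10 SE, adjusted p = 1.5e-11) and Col4a2 differed by 1.19. The laminin alpha chain Lama5 was lower, with 201, 167 and 230.0 in WA arrays, against 1472, 981 and 1536 in WC arrays (log2 difference -2.59 ± 0.24 SE, adjusted p = 1.4e-08), as was Nid2, nidogen 2, with 359, 423 and 378 in WA arrays, against 2445, 1662 and 1678 in WC arrays (log2 difference -2.23 ± 0.23 SE, adjusted p = 7.6e-08). Col18a1, the parent chain of endostatin, was lower (-1.49), and Lamb1 higher (1.12). Groups did not overlap at Col4a1, Lama5 or Nid2.

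Elastic fibre genes leaned to WC, with 3 higher and 9 lower of 18 tested. Mfap5, a microfibril glycoprotein, gave 120.3, 178 and 92.3 in WA arrays, against 3403, 2005 and 2815 in WC arrays, log2 difference -4.18 ± 0.34 SE, adjusted p = 1.6e-09. Ltbp2, a latent TGF-beta binding protein of microfibrils, gave 427, 426 and 419 in WA arrays, against 7213, 6388 and 5335 in WC arrays, log2 difference -3.81 ± 0.20 SE, adjusted p = 4.0e-13. No WA array came near the WC arrays at either gene. Elastin itself, Eln (-0.92), fibrillin 2, Fbn2 (-1.33), and the assembly protein Emilin1 (-1.19) were also lower, whereas Mfap2 was higher (1.24). The related Mfap4 was the reverse of Mfap5: it gave 969.8, 869.6 and 1162 in WA arrays, against 9.40, 8.30 and 12.2 in WC arrays, and the fit without a filter gave log2 difference 4.95 ± 0.36 SE, adjusted p = 3.7e-10. With c-myc the means were 283 in WA and 10.9 in WC, and with v-src 11.6 in WA and 8.70 in WC, so that with v-src both lines were low. It was chosen after its values were seen.

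Matricellular proteins, which tune adhesion without forming fibres, were split, with 7 higher and 6 lower of 26. Postn, periostin, gave 12927, 13347 and 18212 in WA arrays, against 5403, 2066 and 2258 in WC arrays, log2 difference 2.31 ± 0.24 SE, adjusted p = 8.9e-08. Thbs2, thrombospondin 2, gave 2818, 3148 and 6823 in WA arrays, against 725, 509.9 and 902 in WC arrays, log2 difference 2.46 ± 0.24 SE, adjusted p = 3.3e-08. Tnc, tenascin C, gave 11048, 12031 and 14044 in WA arrays, against 2677, 1826 and 3231 in WC arrays, log2 difference 2.28 ± 0.13 SE, adjusted p = 3.1e-12. All 3 were higher on every WA array. The CCN family divided by member: Ccn4 was higher in WA, with 7321, 8098 and 11490.0 in WA arrays, against 2186, 1369 and 2212 in WC arrays (log2 difference 2.21 ± 0.17 SE, adjusted p = 6.9e-10), Ccn5 was lower, with 1364, 1559 and 1022 in WA arrays, against 6397, 5109 and 5617 in WC arrays (log2 difference -2.11 ± 0.22 SE, adjusted p = 5.8e-08), and Ccn3 was lower (-2.81). Mgp, the inhibitor of calcification, was lower, with 4105, 4109 and 3235 in WA arrays, against 13832, 10783 and 8455 in WC arrays (log2 difference -1.50 ± 0.20 SE, adjusted p = 2.2e-06). Of 9 small leucine-rich proteoglycans 2 rose and 3 fell, led by Ogn, osteoglycin, with 1101, 644 and 803 in WA arrays, against 12304, 8984 and 6595 in WC arrays (log2 difference -3.40 ± 0.28 SE, adjusted p = 1.3e-09). Among 21 proteoglycan and hyaluronan genes 4 rose and 2 fell, with Sdc4, a syndecan of focal adhesions, at 474, 625 and 438 in WA arrays, against 3889.9, 4299 and 3087 in WC arrays (log2 difference -2.82 ± 0.15 SE, adjusted p = 7.3e-13). Another probe set of Sdc4 showed no such difference, with 499, 699 and 459 in WA arrays and 668, 590.2 and 466 in WC arrays (-0.06, adjusted p = 0.9).

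Of 35 extracellular proteases and inhibitors 12 rose and 7 fell. Ctsk, the collagen-cutting cathepsin K, gave 1669, 1993 and 2019.9 in WA arrays, against 196, 135 and 155 in WC arrays, log2 difference 3.38 ± 0.20 SE, adjusted p = 3.2e-12. Pappa, which cuts IGF binding proteins, gave 2922, 2813 and 4422 in WA arrays, against 866, 918 and 618 in WC arrays, log2 difference 2.04 ± 0.24 SE, adjusted p = 6.5e-07. Adamts5, an aggrecan-cutting protease, gave 754, 425 and 875 in WA arrays, against 2882, 3734 and 3595 in WC arrays, log2 difference -2.33 ± 0.28 SE, adjusted p = 8.2e-07. Cathepsin K and Pappa were thus WA genes, and WB resembled WC at Ctsk, with 195, 100.5 and 153, and was the lowest of the 3 lines at Pappa, with 194, 198 and 238. Among 24 integrins and cadherins 6 rose and 3 fell. Itga6, a laminin receptor chain, gave 3108, 2732 and 1950.1 in WA arrays, against 474, 688 and 579 in WC arrays, log2 difference 2.11 ± 0.20 SE, adjusted p = 2.0e-08, and Itga3, another laminin receptor chain, gave 285, 257 and 345 in WA arrays, against 886, 1227 and 1484 in WC arrays, log2 difference -1.92 ± 0.19 SE, adjusted p = 4.0e-08. The 2 chains moved in opposite directions without overlap.

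**Figure D3:**
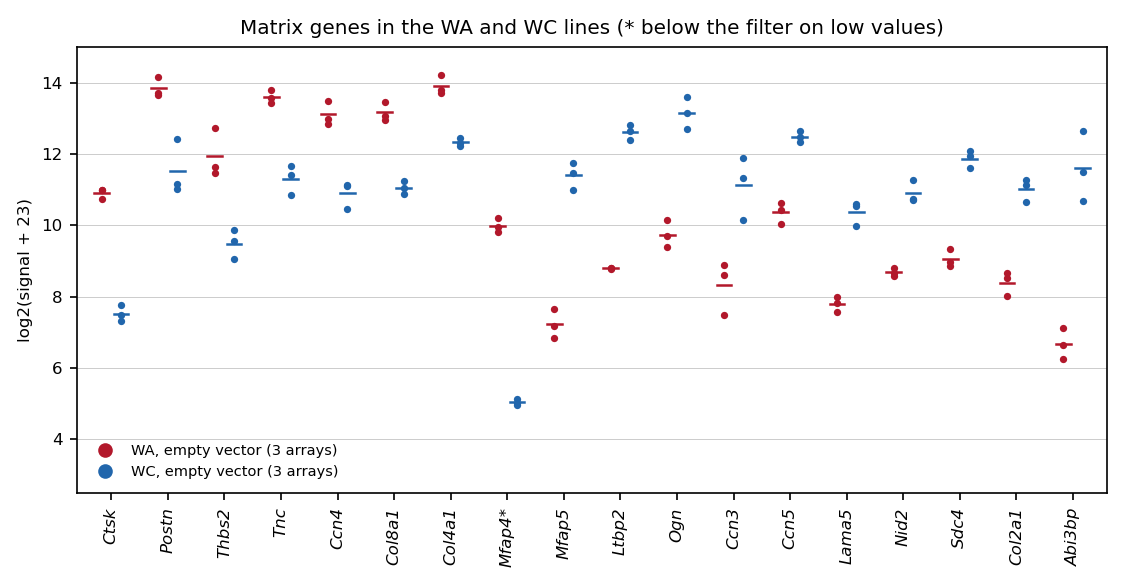
Signal of 18 matrix genes named in the text, on the scale log2(signal + 23) (y axis), in the 3 WA and 3 WC empty-vector arrays, with the mean as a bar; the asterisk marks Mfap4, which lay below the filter. Genes from Ctsk to Mfap4 are higher on every WA array and those from Mfap5 to Abi3bp are higher on every WC array.

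Patterning signals divided between the lines. Of 29 Wnt pathway genes 4 rose and 10 fell in WA. Rspo2 and Rspo3, secreted amplifiers of Wnt signalling, were WC genes: Rspo2 gave 387, 359.8 and 164 in WA arrays, against 9074, 7960.0 and 5421 in WC arrays (log2 difference -4.57 ± 0.39 SE, adjusted p = 2.4e-09) and Rspo3 gave 69.1, 96.7 and 69.9 in WA arrays, against 867, 629 and 517 in WC arrays (log2 difference -2.75 ± 0.29 SE, adjusted p = 7.3e-08). Another probe set of Rspo2 gave 294, 184 and 194 in WA arrays and 364, 343 and 130.2 in WC arrays (-0.20, adjusted p = 0.838), so the probe sets of this gene disagree. Sfrp2, a secreted Wnt binder, was lower (log2 difference -2.56 ± 0.44 SE, adjusted p = 7.5e-05). Lef1, a nuclear effector and target of the pathway, was higher, with 535, 682 and 448 in WA arrays, against 129, 97.2 and 174 in WC arrays (log2 difference 1.90 ± 0.26 SE, adjusted p = 3.4e-06), and so was the antagonist Dkk2 (1.97).

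Of 27 BMP and TGF-beta genes 10 rose and 9 fell. The ligand Bmp4 was lower in WA, with 413, 299 and 239 in WA arrays, against 1345, 1303 and 727 in WC arrays (log2 difference -1.74 ± 0.39 SE, adjusted p = 0.0015), and its secreted antagonist Grem1 was higher, with 2256, 2419 and 1565 in WA arrays, against 409.6, 765 and 530.5 in WC arrays (log2 difference 1.85 ± 0.24 SE, adjusted p = 1.7e-06). Tgfb3, a TGF-beta ligand, was higher, with 9919.6, 8874 and 12306 in WA arrays, against 4193, 4123 and 3685 in WC arrays (log2 difference 1.36 ± 0.20 SE, adjusted p = 1.2e-05). Fst, the activin binder follistatin, was lower in WA (-2.01) and far higher in WB, at 6144, 6417 and 6838. The BMP targets Id2 (-1.38) and Smad6 (-1.38) fell, and Id4 rose (1.09). All were chosen after their values were seen, and other targets on the list, such as Id1 and Id3, are not given. A difference in BMP signalling was not tested.

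Of 30 FGF, hedgehog and retinoid genes 5 rose and 13 fell. The retinoic acid carriers were exchanged: Crabp2 gave 125, 27.4 and 75.6 in WA arrays, against 2554, 2705 and 1913 in WC arrays, and Crabp1 gave 1665, 1984 and 1208 in WA arrays, against 318, 371 and 489 in WC arrays (log2 difference 1.97 ± 0.17 SE, adjusted p = 5.3e-09). Gas1, a hedgehog co-receptor, gave 2263, 2385 and 649 in WA arrays, against 10641, 10846 and 7613 in WC arrays (log2 difference -2.63 ± 0.30 SE, adjusted p = 2.2e-07), with WA replicate 3 below the other arrays. The limb signal Fgf10 was lower (-1.49) and Spry4, an inhibitor induced by FGF signalling, was higher (1.92). Of 31 guidance genes 10 rose and 8 fell, among them Unc5c, a netrin receptor, with 259.7, 198 and 177 in WA arrays, against 1948, 1609 and 1517 in WC arrays (log2 difference -2.88 ± 0.22 SE, adjusted p = 4.8e-10), and Plxnc1, a semaphorin receptor (2.29).

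Genes of the interferon response were lower in WA. Of 23 tested 0 rose and 16 fell, beside 15.1% lower among all autosomal genes, and their median was -1.40 against -0.041. Mx1 (-0.61), Mx2 (0.07), Psmb8 (-0.34) and Psmb9 (0.30) lay below the filter and did not pass in the fit without it. Bst2, tetherin, gave 159.7, 141 and 96.3 in WA arrays, against 1038, 812 and 377 in WC arrays, log2 difference -2.21 ± 0.24 SE, adjusted p = 1.7e-07. Ifit1, a sensor of viral RNA ends, gave 131, 92.7 and 89.9 in WA arrays, against 687, 981 and 255 in WC arrays, log2 difference -2.21 ± 0.35 SE, adjusted p = 3.4e-05. Oas1a, an RNA-activated synthetase, gave 222, 36.8 and 55.5 in WA arrays, against 665, 703 and 247 in WC arrays, log2 difference -2.29 ± 0.42 SE, adjusted p = 1.7e-04. WC replicate 3 was the lowest WC array at all 3, and still stood above every WA array. Rtp4, an interferon-induced chaperone of receptors, had the largest difference of the list, with 123, 82.6 and 75.5 in WA arrays, against 1295, 1404 and 437 in WC arrays (log2 difference -3.05 ± 0.41 SE, adjusted p = 3.2e-06), and H2-D1, a class I antigen-presenting molecule, gave 903, 748 and 898 in WA arrays, against 2910.4, 4015 and 2295 in WC arrays (log2 difference -1.79 ± 0.15 SE, adjusted p = 2.1e-09).

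The promoters of Bst2, Ifit1 and Oas1a are shown because these genes moved together and each window holds the interferon-stimulated response element, searched as GAAA followed after any 2 bases by another GAAA, on both strands, and set in capitals. They are the RefSeq windows on build GRCm38.p6, for Bst2 the minus strand of chr8:71537423-71537722, for Ifit1 the plus strand of chr19:34640639-34640938, and for Oas1a the minus strand of chr5:120907476-120907775.
Bst2: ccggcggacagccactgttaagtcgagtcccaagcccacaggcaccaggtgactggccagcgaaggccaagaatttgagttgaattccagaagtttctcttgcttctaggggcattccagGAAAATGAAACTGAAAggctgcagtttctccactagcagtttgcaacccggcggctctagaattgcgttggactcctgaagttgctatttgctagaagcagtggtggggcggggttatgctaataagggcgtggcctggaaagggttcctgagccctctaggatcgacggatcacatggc
Ifit1: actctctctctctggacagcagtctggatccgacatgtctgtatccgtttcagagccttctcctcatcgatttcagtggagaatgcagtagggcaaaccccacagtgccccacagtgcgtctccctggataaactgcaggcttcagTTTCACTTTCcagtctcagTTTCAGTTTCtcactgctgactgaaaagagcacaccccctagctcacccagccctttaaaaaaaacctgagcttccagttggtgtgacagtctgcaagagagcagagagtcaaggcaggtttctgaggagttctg
Oas1a: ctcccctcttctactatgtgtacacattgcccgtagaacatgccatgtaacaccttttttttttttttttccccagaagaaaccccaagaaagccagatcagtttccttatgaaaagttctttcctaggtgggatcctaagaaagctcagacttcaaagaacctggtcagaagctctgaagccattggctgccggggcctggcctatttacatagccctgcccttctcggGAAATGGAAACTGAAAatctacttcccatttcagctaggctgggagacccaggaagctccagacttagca
In each window 2 overlapping or neighbouring matches were found, on the printed strand for Bst2 and Oas1a and on the opposite strand for Ifit1. Of the 16 interferon genes that fell, 14 have a promoter in the table and 9 of these (64.3%) hold a match, and of the 7 that did not pass, 6 have a promoter and 2 hold one. Over all 25748 autosomal genes with a promoter 4.02% hold a match, and over all 31396 windows 3.46%. A match is a description of the letters and not evidence that a factor was bound.

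The interferon difference was not constant across vectors. With c-myc the median was -0.34, and 3 of the 23 genes fell in WA. With v-src the median was -2.53 and all 23 fell, 0 rising with either vector. The mean level over the 23 genes, on the log2(signal + 23) scale, was 7.77 in WA against 9.05 in WC with the empty vector, 7.59 in WA against 8.02 in WC with c-myc, and 8.65 in WA against 11.16 in WC with v-src. For 12 of the 16 genes that fell the F test found a line difference that changed with the vector, beside 34.3% of all genes called with the empty vector and 17.6% of all autosomal genes.

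Other lists of cell state moved less. Of 20 proliferation genes 7 rose and 0 fell, all by small amounts, the largest being Mcm6, of the replication helicase (log2 difference 0.60 ± 0.09 SE, adjusted p = 1.7e-05). Of 15 p53 and senescence genes 2 rose and 7 fell. Perp, a p53 target in desmosomes, gave 50.1, 54.6 and 27.0 in WA arrays, against 939.9, 1053 and 945 in WC arrays, log2 difference -3.93 ± 0.38 SE, adjusted p = 2.4e-08. Cdkn1a, the p53 target that halts the cell cycle, gave 400.2, 409.6 and 380.3 in WA arrays, against 1562, 2005 and 999 in WC arrays, log2 difference -1.82 ± 0.24 SE, adjusted p = 2.6e-06. Both were lower on every WA array. Of 15 early stress genes 1 rose and 6 fell, with Fos (-1.79) and Egr1 (-1.33) among those that fell.

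Line differences were read again with c-myc and with v-src, on arrays that the empty-vector comparison did not use. With c-myc 23.6% of autosomal genes differed between the lines and with v-src 30.8%. Of the 3762 genes called with the empty vector, 44.0% were called in the same direction with c-myc, 58.3% with v-src and 31.1% with both. Across the 12525 genes the difference with the empty vector correlated with that under c-myc at 0.658 and under v-src at 0.685, as a description over genes that are not independent. Among genes at least 2-fold apart, 481 of 936 (51.4%) were called the same way with both oncogenes. The share was 21 of 25 (84.0%) for positional genes, 29 of 51 (56.9%) for matrix genes and 3 of 14 (21.4%) for interferon genes. By the F test the size of the difference changed with the vector at 10 of these 25 positional genes, 30 of the 51 matrix genes (58.8%) and 10 of the 14 interferon genes (71.4%), beside 435 of all 936 (46.5%). Among calls of any size, 16 of 44 lineage genes (36.4%) were called the same way with both oncogenes, near the 31.1% of all genes called. The count was 0 of 3 for cartilage, 1 of 7 for skeletal muscle and 1 of 5 for tendon, but 3 of 3 for smooth muscle and 3 of 3 for adipocyte genes.

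**Figure D4:**
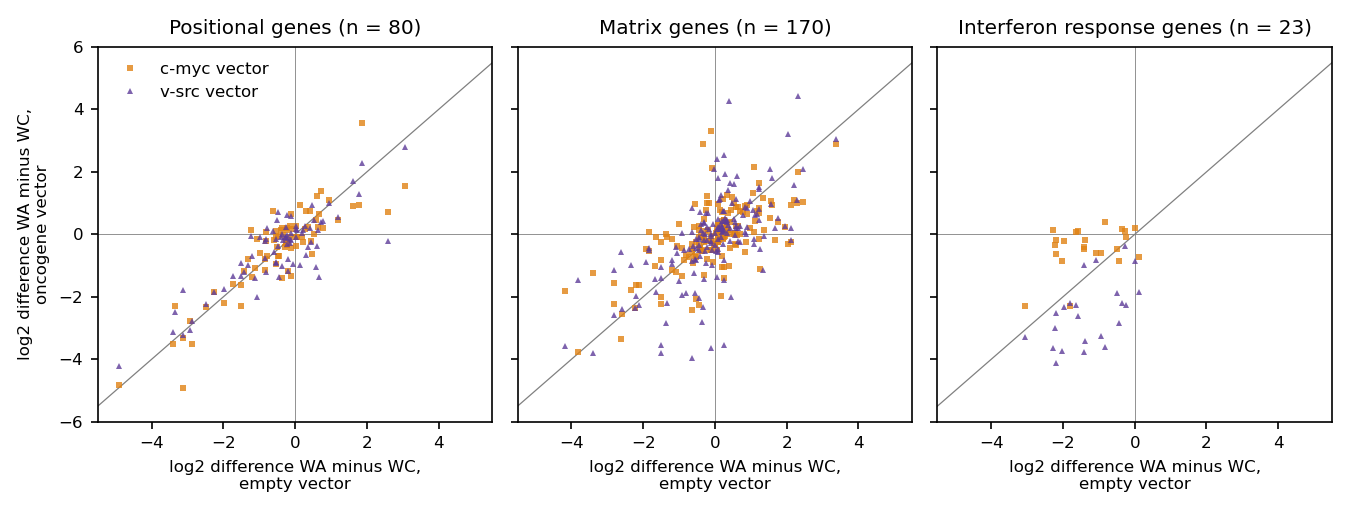
Log2 difference, WA minus WC, with the empty vector (x axis) and with c-myc (squares) or v-src (triangles) (y axis) for the tested positional, matrix and interferon genes; the diagonal marks equal differences. Of the 25 positional genes at least 2-fold apart 21 were called the same way with both oncogenes, and of the 23 interferon genes most lie above it with c-myc and below it with v-src.

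Some matrix differences depended on the vector. Itga6 differed by 2.11 with the empty vector, -0.25 with c-myc and -0.17 with v-src (F test, adjusted p = 1.4e-06). Pappa differed by 2.04, -0.32 and 3.21 in the same order (adjusted p = 3.3e-07), and Col18a1 by -1.49, -0.25 and -3.79 (adjusted p = 6.5e-08). Ctsk, Lama5 and Nid2 differed by like amounts with each vector: Ctsk gave 2.88 and 3.06, Lama5 -2.55 and -2.38, and Nid2 -2.35 and -2.35 with c-myc and v-src. The tests of a changing difference gave adjusted p = 0.4, 0.89 and 0.95 for these 3.

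The differences were also read along the chromosomes, in windows of 15 neighbouring tested genes. Of 12259 windows the 5th to 95th percentile of the median difference ran from -0.31 to 0.22. The lowest window, chosen on these values, was the one on chromosome 6 from Hnrnpa2b1 to Jazf1 that contains the HoxA cluster, with a median of -0.78, 1 gene higher and 8 lower. With c-myc the same window gave -0.80 and with v-src -0.69. The next lowest, on chromosome 6 from Tspan11 to 2310001H17Rik and on chromosome 10 from Egr2 to Bicc1, gave -0.75 and -0.66, but -0.05 and -0.23 with c-myc and -0.11 and -0.38 with v-src. The highest windows were on chromosome 8 from Gsr to Dlc1, which includes Dusp4, at 0.64 with 11 of 15 genes higher, on chromosome 2 from Lin7c to Actc1, which includes Grem1, at 0.62, and on chromosome 1 from Pdcl3 to Fhl2 at 0.53. With c-myc these 3 gave 0.09, 0.17 and 0.23, and with v-src 0.42, 0.16 and 0.32.

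Whole autosomes differed by small amounts, of which some recurred with every vector. The median on chromosome 11 was 0.132, with 274 of 1067 genes (25.7%) higher and 73 (6.8%) lower, and 0.132 with c-myc and 0.144 with v-src. On chromosome 1 it was 0.114, with 185 of 748 genes (24.7%) higher and 64 (8.6%) lower, and 0.103 with c-myc and 0.136 with v-src. Chromosome 7 lay lowest, at -0.146, with 72 of 994 genes higher and 167 lower, and -0.110 with c-myc and -0.070 with v-src. Chromosome 4 came next, at -0.135, with -0.103 with c-myc but -0.011 with v-src, and chromosome 12 gave -0.074 with the empty vector, -0.046 with c-myc and 0.057 with v-src. For single arrays, each gene was read as its deviation from its own mean over all 26 arrays. The median deviation on a chromosome was then taken, less the array's median over all autosomal genes tested. On chromosome 11 the 9 WA arrays of all vectors ran from 0.060 to 0.103 and the 9 WC arrays from -0.079 to -0.039, without overlap. On chromosome 1 the 9 WA arrays ran from 0.044 to 0.114 and the 9 WC arrays from -0.073 to -0.026. No copy number was measured.

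**Figure D5:**
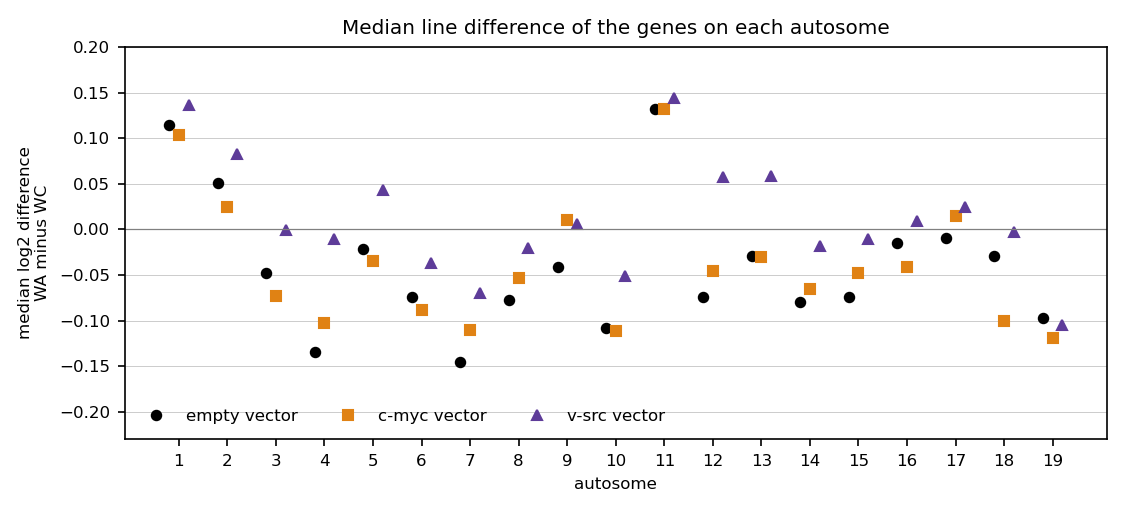
Median log2 difference, WA minus WC, of the tested genes on each autosome (x axis) with the empty vector (circles), c-myc (squares) and v-src (triangles). Chromosomes 1 and 11 lie above 0.1 with all 3 vectors, and chromosome 7 lies below 0 with all 3.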

How the data were processed

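Per the submitters' processing notes the values were computed with MAS5. The authors deposited a linear intensity for each of 45101 probe sets on 26 arrays. The version of MAS5 is not given in the sources used here, and present or absent calls were not used. Arrays are not sequenced, so their number limits the precision. Gene names came from the platform annotation, where 34945 probe sets had a single symbol, 932 several and 9160 none, with chromosomes from RefSeq. From the deposited intensities log2(signal + 23) was computed, 23 being the 20th percentile of all values. Probe sets with a mean at or below the 40th percentile were left out and the probe set with the highest mean per gene was kept. limma 3.58.1 in R 4.3.3 fitted 1 mean per line and vector to all arrays, with an intensity trend and no block, and Benjamini-Hochberg adjustment over 13018 genes, of which 493 outside the autosomes are not described.

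Genes were named by rule: the 12 largest differences each way among genes called without overlap, up to 4 called members each way per list, all Hox genes, the defining markers of each cell type and the leading genes of the windows. Outside the rule, and chosen after their values were seen, are Eln, Emilin1, Emx2, Fgf10, Gata6, H2-D1, Id2, Id4, Prrx2, Smad6, Sox10 and Tbx3. The same holds for the genes named below the filter other than Hox genes and defining markers. The comparison, the gene lists and the tests were chosen with earlier results of these data known. On simulated data of 13018 genes the fit recovered 76 of 100 genes changed by 1 and 100 of 100 changed by 2 on the log2 scale, with 10 false calls among the unchanged genes. The simulated noise was independent and the groups had no other differences, so the error rate of the real calls does not follow from it. Alternatives are given in the closing section.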

Additional observations from a re-analysis of the deposited data

Results flagged for a closer look

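Of the 153 autosomal genes given above with a difference, 79 had a WA minus WC difference that changed with the vector by the F test over both oncogene vectors, at an adjusted p under 0.05 over all genes. This is what brought them here, and the test's adjusted p follows each name. Among all autosomal genes 17.6% did so and among those called with the empty vector 34.3%, and the genes named were picked for large differences with the empty vector.

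The changes took different forms. Lce1h differed by 3.5 with the empty vector, -0.01 with c-myc and 5.96 with v-src (adjusted p = 1.22e-10). Col6a3 differed by 1.09 with the empty vector, 2.15 with c-myc and -0.30 with v-src (adjusted p = 7.74e-09). Cd24a differed by -4.96 with the empty vector, -4.82 with c-myc and -1.88 with v-src (adjusted p = 1.25e-09). These are a late cornified envelope gene, a collagen VI chain and a surface glycoprotein. Crabp1 differed by 1.97 with the empty vector, 4.30 with c-myc and 0.82 with v-src (adjusted p = 1.82e-09). Slc14a1 differed by -4.94 with the empty vector, -1.39 with c-myc and -5.60 with v-src (adjusted p = 1.32e-08). Itga6 differed by 2.11 with the empty vector, -0.25 with c-myc and -0.17 with v-src (adjusted p = 1.39e-06). These are a retinoic acid carrier, a urea transporter and a laminin receptor chain. Pappa differed by 2.04 with the empty vector, -0.32 with c-myc and 3.21 with v-src (adjusted p = 3.33e-07). Cdkn1a differed by -1.82 with the empty vector, -2.15 with c-myc and 0.11 with v-src (adjusted p = 6.05e-05). Mest differed by -2.74 with the empty vector, -1.85 with c-myc and 0.07 with v-src (adjusted p = 0.00736). No cause was tested for any of these changes.

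Called in the same direction with all 3 vectors, but by different amounts, were Abi3bp (adjusted p = 0.019), Actg2 (adjusted p = 1.61e-06), Cbr2 (adjusted p = 0.000827), Ccn4 (adjusted p = 0.00702), Cd34 (adjusted p = 0.000947), Col4a1 (adjusted p = 0.00638), Col7a1 (adjusted p = 0.0285), Crabp2 (adjusted p = 4.58e-05) and Dusp4 (adjusted p = 4.21e-06). To these belong En1 (adjusted p = 0.00176), Ets1 (adjusted p = 0.02), Foxd1 (adjusted p = 3.03e-05), Foxf1 (adjusted p = 0.00512), Hoxd8 (adjusted p = 0.00933), Id4 (adjusted p = 0.0047), Il1rn (adjusted p = 0.0462), Irx3 (adjusted p = 0.00377) and Lpl (adjusted p = 0.00897). The same held for Ltbp2 (adjusted p = 9.42e-07), Mcam (adjusted p = 0.000177), Megf10 (adjusted p = 0.00225), Mfap5 (adjusted p = 0.00275), Mgp (adjusted p = 2.68e-05), Mme (adjusted p = 0.029), Ogn (adjusted p = 7.56e-05), Osr1 (adjusted p = 0.0107) and Pdpn (adjusted p = 0.000961). In the same way there were Peg3 (adjusted p = 6.19e-05), Penk (adjusted p = 0.0436), Postn (adjusted p = 2.46e-05), Prrx1 (adjusted p = 1.7e-05), Ptprz1 (adjusted p = 4.46e-07), Rgs16 (adjusted p = 0.0171), Rspo3 (adjusted p = 6.19e-05), Sdc4 (adjusted p = 1.21e-05) and Shox2 (adjusted p = 0.0388). Also of this kind were Slit3 (adjusted p = 0.0174), Sod3 (adjusted p = 0.000573), Thbs2 (adjusted p = 0.0119), Thy1 (adjusted p = 1.12e-06), Tnc (adjusted p = 2.19e-05), Tnnt2 (adjusted p = 0.0113), Tubb3 (adjusted p = 0.0011) and Unc5c (adjusted p = 0.00428).

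Called in the same direction with v-src and not with c-myc were Acta1 (adjusted p = 0.000156), Bst2 (adjusted p = 1.59e-05), Col18a1 (adjusted p = 6.51e-08), Emilin1 (adjusted p = 0.0272), Fbn2 (adjusted p = 0.00133), Gas1 (adjusted p = 0.00372), Ifit1 (adjusted p = 7.84e-05), Igf2 (adjusted p = 0.00122) and Itga3 (adjusted p = 0.00127). To these belong Oas1a (adjusted p = 0.000203), Pdgfra (adjusted p = 2.08e-06), Plxnc1 (adjusted p = 0.0201) and Prrx2 (adjusted p = 1.22e-06).

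Called in the same direction with c-myc and not with v-src were Col2a1 (adjusted p = 0.00033), Col8a1 (adjusted p = 9.8e-07), Fap (adjusted p = 0.0213), Fos (adjusted p = 0.0315), Grem1 (adjusted p = 0.00188), Meis2 (adjusted p = 5.93e-05) and Sox9 (adjusted p = 0.0257).

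Called with the empty vector and with neither oncogene were Krt8 (adjusted p = 0.00682) and Meox1 (adjusted p = 0.0034).

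Not called with the empty vector were Acta2 (adjusted p = 2.5e-07), Col1a1 (adjusted p = 7.56e-05), Col3a1 (adjusted p = 0.0495) and Tagln (adjusted p = 2.73e-10).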

How the results depend on the processing

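The count of 3762 autosomal genes that differed between WA and WC was 2295 (1095 higher and 1200 lower) when only the 6 arrays were fitted, which leaves fewer arrays to estimate the spread; 2254 of these were shared. Leaving out 1 array at a time gave 3193 to 3554 genes, 1560 to 1852 higher and 1633 to 1854 lower, the fewest without WC replicate 1. With c-myc it gave 2331 to 2873 and with v-src 3203 to 3541, and for list members 244 to 251. With the replicate number as a block 3711 genes were called, 3655 of them shared with the fit without it, and none of the named genes lost its call. Deviations of same-numbered WA and WC arrays correlated at 0.064, -0.183 and -0.143, and 0 of 6 arrays correlated best with its own number, so the numbers were not taken as pairs.

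The median of chromosome 1 was 0.148 with quantile normalization, 0.056 with no filter and 0.179 with a filter at the 60th percentile. Chromosome 7 gave -0.090 with quantile normalization, -0.119 with a pseudocount of 100 and -0.117 with the 60th percentile. Chromosome 11 gave 0.148, 0.113 and 0.180 in the same order, 0.061 with no filter and 0.113 with the mean of probe sets. The cause was not tested. The median of all autosomal genes moved between -0.065 and 0.010 over these settings.

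Of 230 genes followed through up to 15 alternatives each, 189 kept direction and side of the threshold in all. Fitting only the 6 arrays lost 27 calls, and leaving out 1 array lost 11 to 19. Changes of direction were seen only at genes that had not passed the test. Acta2 gave 0.00 with quantile normalization and -0.05 to 0.30 with 1 array left out, Col1a1 -0.02 to 0.29, Col1a2 -0.06 and -0.10 to 0.20, Col3a1 -0.10 and -0.11 to 0.18, with -0.08 for the mean of probe sets, and Hoxa5 -0.63 to 0.14 with 1 array left out.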

Other observations

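Of the genes on the lists, 214 had signals below the filter. In the fit without it 7 of them rose in WA and 26 fell. Of all 17404 autosomal genes in that fit, 10.6% were higher and 11.3% lower in WA. The genes named here were chosen after their values were seen. Erg, a transcription factor of endothelium and early cartilage, gave 3.60, 11.3 and 8.70 in WA arrays, against 309, 248 and 199.9 in WC arrays (log2 difference -3.15 ± 0.22 SE, adjusted p = 2.0e-10), and the difference was -2.36 with c-myc and -4.38 with v-src. Hapln1, the link protein of cartilage matrix, gave 25.7, 1.5 and 9.70 in WA arrays, against 119, 80.0 and 146 in WC arrays (log2 difference -2.0 ± 0.31 SE, adjusted p = 3.5e-05). Msln, mesothelin, gave 12.3, 10.6 and 7.5 in WA arrays, against 61.5, 99.5 and 158 in WC arrays (log2 difference -1.90 ± 0.36 SE, adjusted p = 3.0e-04). WC arrays were higher than every WA array at each of these genes. Wif1, a secreted inhibitor of Wnt ligands, gave 0.8, 1.4 and 1.2 in WA arrays, against 113, 56.9 and 55.8 in WC arrays (log2 difference -1.98 ± 0.30 SE, adjusted p = 2.2e-05), but differed by only 0.05 with c-myc and -0.82 with v-src. On the WA side Epha3, an ephrin receptor, gave 229, 214 and 342 in WA arrays, against 45.5, 39.4 and 20.8 in WC arrays (log2 difference 2.29 ± 0.33 SE, adjusted p = 1.3e-05), and Wnt9a, a Wnt ligand, gave 256, 305 and 276 in WA arrays, against 44.3, 56.8 and 117 in WC arrays (log2 difference 1.73 ± 0.46 SE, adjusted p = 0.007).

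Chromosome 16 had a median difference between WA and WC of -0.015, while line WB stood apart from both. The array medians on it were taken as deviations, in the way given for chromosome 11. They ran from -0.131 to -0.080 over the 9 WA arrays, from -0.134 to -0.060 over the 9 WC arrays, and from 0.182 to 0.296 over the 8 WB arrays.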
